A study of Sus scrofa with 35 samples.

Results

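The interleukin 1 and 18 system was followed in pig blood through 10 genes, namely the ligands IL1A, IL1B and IL18, the receptor antagonist IL1RN, the receptor chains IL1R1, IL1R2 and IL1RAP, the inflammasome genes NLRP3 and PYCARD, and the adaptor MYD88. Members were found by the gene name that the array files give to each probe, in any letter case. Of 60305 distinct probes, 16 carried such a name, and they covered 8 of the 10 genes. No probe bore the name IL1R2 or IL1RAP, so these receptor chains were not analysed here. The single probes of IL1R1 and PYCARD were well above background on 0 of 35 arrays and are absent from the table of log2 values that the authors made. The results below therefore rest on 14 probes of 6 genes.

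The samples were whole blood of 35 castrated male growing pigs, with 1 array each. The breeds were Creole (CR, 11 pigs), Large White (LW, 12 pigs) and the F1 of Large White and Creole (12 pigs). Pigs were kept at 24 °C (thermoneutral, TN) or heat-stressed (HS), which gave 6 groups of 6 pigs except for CR TN with 5. The labels put HS at 30 °C and the protocol at 32 °C, for 5 days, and the methods allow a day less. All TN pigs were slaughtered on days before the rise in temperature, so climate and day of slaughter cannot be told apart. Blocks of littermates were used, and each pen held a single breed and was slaughtered in a single climate. Pen and litter are not in the labels, so the tests treat pigs as independent. Pigs of a pen shared breed and climate, so the p values may be too small. The paper's model, which includes pen, day of slaughter and parents, called fewer blood probes than the 13601 called here between HS and TN.

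IL-1α, IL-1β and IL-18 are cytokines of the early inflammatory response. IL-1β and IL-18 are made as inactive precursors, which caspase-1 cuts once an inflammasome of NLRP3 and the adaptor PYCARD has formed. IL-1α and IL-1β bind IL1R1, which then recruits the accessory chain IL1RAP, while IL1R2 is a decoy and IL1RN blocks the receptor. MYD88 carries the signal from the IL-1, IL-18 and most Toll-like receptors to IRAK kinases and TRAF6. In blood, monocytes and neutrophils are the main cells known for this system. In a whole blood sample, fewer cells of a type and less RNA per cell cannot be told apart.

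Values are quantile-normalized log2 intensities, and a difference of 1 is a 2-fold change. The level of one probe is not comparable with that of another. Between 55.2% and 68.0% of probes stood well above background on an array. As a measure of brightness, the 75th percentile of processed signal lay between 112 and 186 on the 6 F1 TN arrays and between 172 and 266 on the 6 F1 HS arrays. The mean of 10 erythroid genes was 11.91 ± 0.47 (SD, n = 6) in F1 TN and 11.09 ± 0.54 (n = 6) in F1 HS, while the CR and LW groups lay between 11.26 and 11.57. Of these 10 erythroid genes, 4 were lower and 1 higher in HS than in TN pigs. The part of this difference in the results was not tested other than by a fit with the erythroid mean as a covariate, whose values stand beside the calls.

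In the comparison of HS with TN pigs, corrected for breed, 3 of the 14 probes were detected as differentially expressed, and all 3 were lower in HS pigs (limma, adjusted p below 0.05). They were 2 of the 3 probes of IL1A and 1 of the 3 probes of MYD88. Over the whole array, 34.8% of 39072 probes were called in this comparison, 20.1% higher and 14.7% lower. Whether the share of calls among the members differed from these was not tested. The median log2 fold change of the 14 probes was -0.12, against 0.06 over all probes. No probe of IL1B, IL18, IL1RN or NLRP3 passed the threshold. In limma, 0 of the 14 probes passed with the erythroid mean as a covariate (5 at an unadjusted p below 0.05) or without the F1 pigs (3 unadjusted). The count was also 0 without the F1 TN arrays (3 unadjusted) and in an additive fit whose only values were the 6 group means (5 unadjusted). Over all 39072 probes, 454, 0, 1 and 0 were called in these fits, in the same order. The unadjusted counts over all probes were 9291, 6845, 6933 and 10219. Without the F1 TN arrays, the F1 HS pigs carry no information on climate. That fit therefore gives the same log2 fold changes as the fit without F1 pigs and does not single out the F1 TN arrays. With 6 values per probe, the fit to the group means has little power to call any probe.

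**Figure D1:**
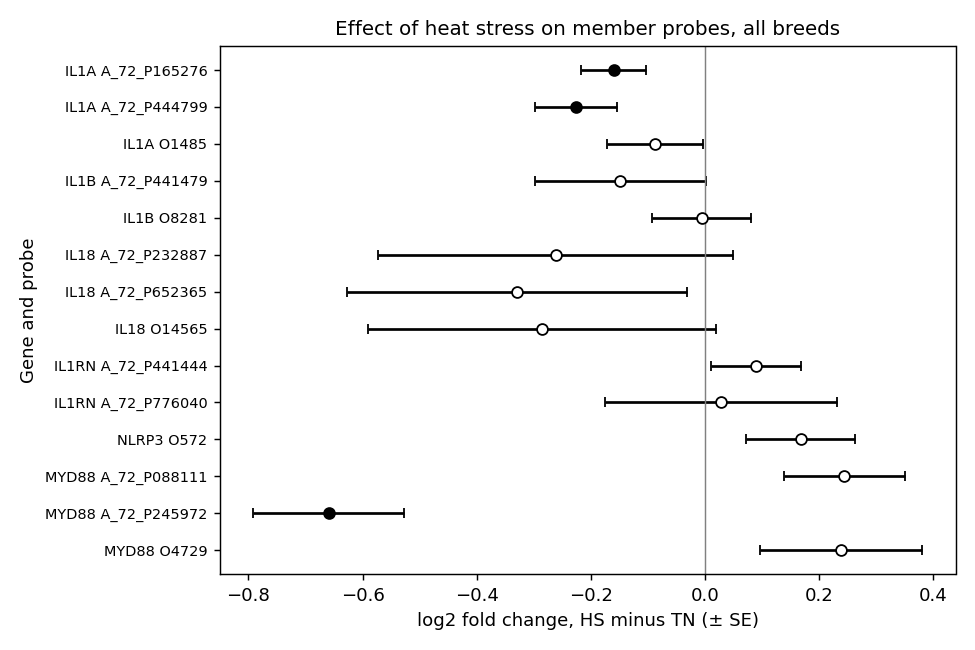
Log2 fold change of HS minus TN (x axis, with SE) for the 14 probes of 6 genes (y axis), from the additive model of breed and climate over 35 pigs; filled points passed the threshold. The 3 filled points, 2 of IL1A and 1 of MYD88, lie at -0.16, -0.23 and -0.66, while the other MYD88 probes lie at 0.24.

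IL1A encodes IL-1α, a cytokine that acts largely as a membrane-bound or released alarm signal. Its signal was low. Over all pigs the 3 probes ranged from 5.10 to 6.33, and the dimmest probes well above background on an array stood between 4.79 and 5.19. Probe A_72_P444799 was well above background on 33 of 35 arrays, A_72_P165276 on 34 and O1485 on 21. In the same order, these were 4, 6 and 1 of 6 arrays in F1 TN and 6, 6 and 4 of 6 in F1 HS.

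With A_72_P444799, the CR TN pigs had values of 6.11, 5.96, 5.90, 5.98 and 5.88. The CR HS pigs ranged from 5.56 to 6.18 with a median of 5.81. The F1 pigs spanned 5.47 to 6.16 (median 5.97) in TN and 5.49 to 5.79 (median 5.71) in HS. The climates overlapped in both breeds, and the HS median was the lower one in each. In LW pigs the values ran from 5.65 to 6.33 (median 5.92) in TN and from 5.29 to 5.88 (median 5.72) in HS, again with overlap. IL1A fell by 0.23 ± 0.07 (SE) on the log2 scale with this probe (adjusted p = 0.0155, limma), and 16 of 18 HS pigs lay below the TN mean of their breed. With A_72_P165276 it fell by 0.16 ± 0.06 (adjusted p = 0.028, limma), also with 16 of 18 pigs below. The value of O1485 was -0.09 ± 0.08 (adjusted p = 0.427, limma). A further IL1A probe, which bears no gene name and is no member, gave -0.11 ± 0.09 (adjusted p = 0.337, limma). Its correlation with O1485 was 0.75, group means removed. With the erythroid covariate the first pair of probes gave -0.19 (adjusted p = 0.132) and -0.12 (adjusted p = 0.216, both limma). Their size depended on the scaling, with -0.44 and -0.50 when arrays were scaled on the 75th percentile and -0.13 and -0.10 after normexp background correction. Without F1 pigs the values were -0.22 (adjusted p = 0.24) and -0.06 (adjusted p = 0.646, both limma).

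The probes A_72_P165276 and A_72_P444799 are shown because they cover nearly the same bases and yet differ in places. They align over 57 bases with 3 mismatches. The stretch of 30 bases that holds the mismatches is printed 5′ to 3′, with the mismatched bases in capitals.
A_72_P165276: aggtctgtatGGtagtaGctgggagccctg
A_72_P444799: aggtctgtatTCtagtaActgggagccctg
After removal of the group means, the 2 probes had a correlation of 0.40 across the 35 pigs, against 0.63 between A_72_P444799 and O1485 and 0.15 between A_72_P165276 and O1485. These values describe how far probes of the same dim gene followed each other.

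IL1B encodes IL-1β, the circulating form that drives fever and the acute phase response. Its brighter probe, A_72_P441479, was above background on all 35 arrays. The CR TN pigs had 8.41, 7.68, 7.25, 8.10 and 8.26, and the CR HS pigs ranged from 7.64 to 9.01 with a median of 7.95. Among F1 pigs the values ran from 7.65 to 8.54 (median 8.20) in TN and 7.63 to 8.43 (median 7.75) in HS. In LW pigs it was 7.48 to 8.83 (median 8.29) in TN and 7.46 to 8.68 (median 7.62) in HS. The climates overlapped in each breed. The log2 fold change was -0.15 ± 0.15 (adjusted p = 0.45, limma), with a 95% interval of -0.45 to 0.16. The second probe, O8281, gave -0.01 ± 0.09 (adjusted p = 0.963, limma).

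O8281 carries the accession of the human gene, and its sequence on the array is shown for that reason.
O8281: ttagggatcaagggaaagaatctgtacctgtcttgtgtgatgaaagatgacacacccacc
The probes of IL1B had a correlation of 0.56 across pigs, group means removed. A further IL1B probe, which bears no gene name and is no member, was well above background on 35 arrays. It gave -0.17 ± 0.14 (adjusted p = 0.356, limma), with correlations of 0.95 with A_72_P441479 and 0.70 with O8281. The pig genome also holds IL1B2, a close copy of IL1B, and the probe A_72_P463511 carries accessions of both. It is named differently on the array and so is no member. Its log2 fold change was -0.20 ± 0.12 (adjusted p = 0.185, limma) and its correlation with A_72_P441479 was 0.33. Signal of the copies cannot be told apart with certainty.

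**Figure D2:**
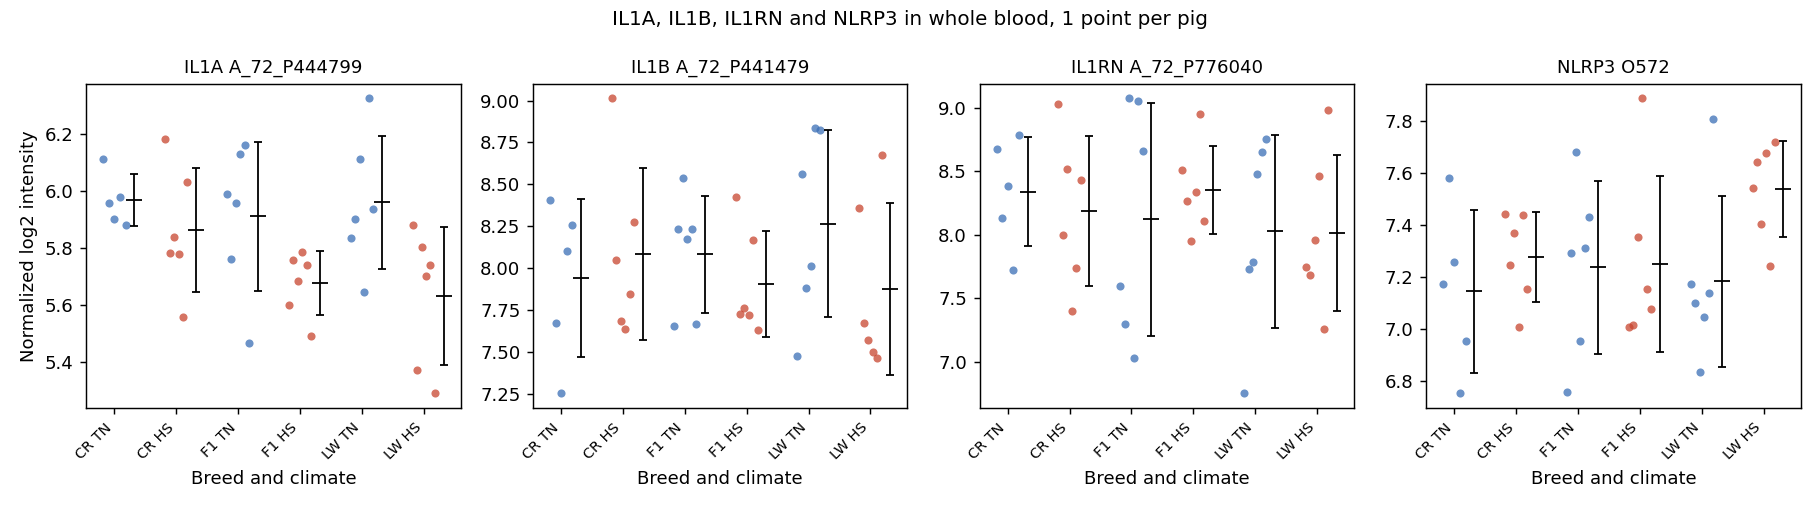
Normalized log2 intensity (y axis) in each pig by breed and climate (x axis) for 1 probe each of IL1A, IL1B, IL1RN and NLRP3; the black mark and bar are mean and SD of 5 pigs in CR TN and 6 in the other groups. HS and TN pigs of a breed overlap in each panel, and the y axes differ because levels of probes are not comparable.

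IL18 encodes IL-18, which stimulates T and NK cells to make interferon gamma. It was the most variable member. The SD within groups was 0.956 to 1.003 for its 3 probes, at percentile 99.1 to 99.2 of all probes, whose median SD was 0.27. With A_72_P652365 the pigs spanned 7.24 to 12.15, a range of 4.91 on the log2 scale. By contrast, the probes of IL1A had SDs of 0.14 to 0.25.

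The 3 probes gave nearly the same order of pigs, with correlations of 0.98 to 0.99 between them after removal of the group means. A_72_P232887 and O14565 overlap, as their sequences show, with the 42 shared bases in capitals. A_72_P652365 lies elsewhere on the transcript and shares no run over 5 bases with them.
A_72_P232887: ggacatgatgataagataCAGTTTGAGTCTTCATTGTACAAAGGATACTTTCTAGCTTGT
O14565: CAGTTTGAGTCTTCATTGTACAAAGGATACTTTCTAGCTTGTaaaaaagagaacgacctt
A_72_P652365: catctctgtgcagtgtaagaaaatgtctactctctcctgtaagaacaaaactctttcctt
The wide range of IL18 was thus read from separate stretches of its transcript.

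With A_72_P652365, the CR TN pigs had 12.15, 9.51, 8.97, 9.37 and 9.75, so that 1 pig stood far above the others. The CR HS pigs ranged from 8.01 to 11.60 with a median of 9.40. F1 pigs ranged from 8.77 to 9.94 (median 9.47) in TN and 7.78 to 10.15 (median 8.65) in HS. The F1 TN pigs lay close together, with an SD of 0.41 against 0.88 in F1 HS. In LW pigs the range was 7.24 to 9.90 (median 9.08) in TN and 7.75 to 10.15 (median 8.86) in HS. HS and TN pigs overlapped in each breed. The log2 fold change of HS minus TN was -0.33 ± 0.30 (adjusted p = 0.394, limma), with a 95% interval of -0.93 to 0.28. The interval thus reaches from almost 2-fold lower to slightly higher in HS. Without the highest CR TN pig, the value was -0.17 ± 0.27. It was -0.74 ± 0.29 with the erythroid covariate (adjusted p = 0.123), -0.55 ± 0.24 with the neutrophil covariate (adjusted p = 0.0734) and -0.52 ± 0.26 with array weights (adjusted p = 0.099, all limma), so its size depended on the setting while no setting passed the threshold.

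By breed, IL18 had its highest mean in CR pigs (9.73 ± 1.22, SD, n = 11), then F1 (9.17 ± 0.70, n = 12) and LW pigs (8.86 ± 0.83, n = 12). The difference between CR and LW pigs was 0.89 ± 0.37 (SE) with A_72_P652365, 0.84 ± 0.38 with A_72_P232887 and 0.93 ± 0.38 with O14565. None of these passed the threshold (adjusted p = 0.354, 0.432 and 0.328, limma), and neighbours in that order lay within each other's spread. Leaving out the highest CR TN pig gave 0.65 with A_72_P652365 (adjusted p = 0.589, limma).

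**Figure D3:**
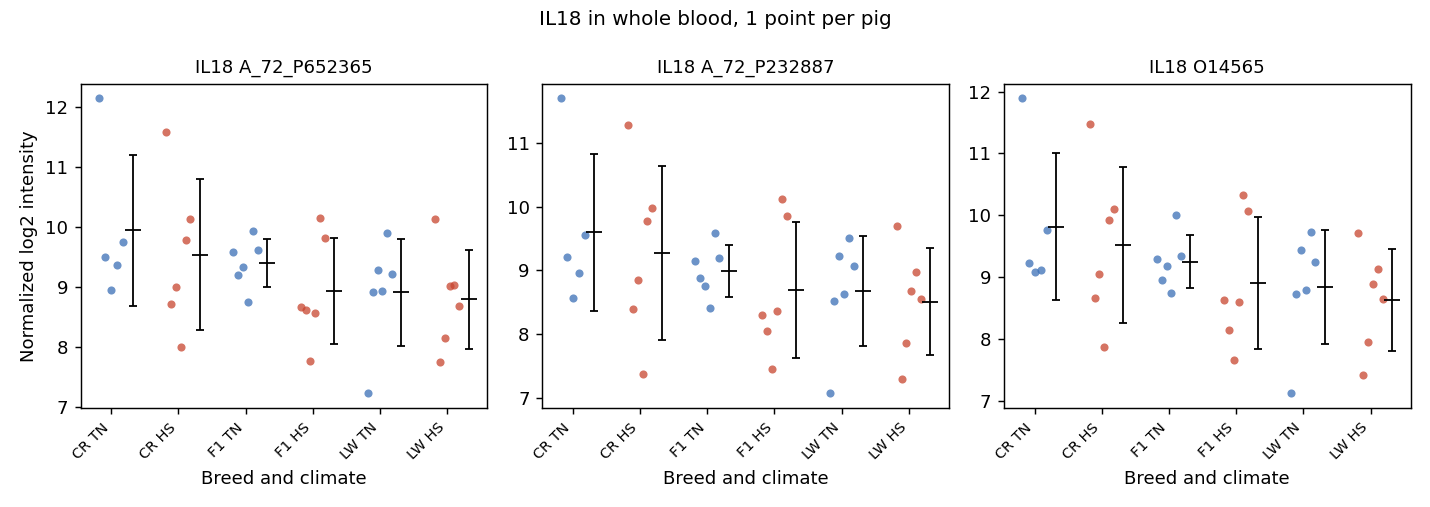
Normalized log2 intensity (y axis) of the 3 IL18 probes in each pig by breed and climate (x axis), with mean and SD in black. The same CR TN pig is highest in each panel, at 12.15 in the left panel, and HS and TN pigs overlap in each breed.

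IL1RN encodes the IL-1 receptor antagonist, a secreted protein that occupies IL1R1 without signalling. Its brighter probe, A_72_P776040, varied widely, with a within-group SD of 0.65 at percentile 96.1 of all probes. The CR TN pigs had 8.67, 8.13, 8.38, 7.72 and 8.78, and the CR HS pigs ranged from 7.40 to 9.03. In F1 pigs the range was 7.03 to 9.07 in TN and 7.95 to 8.95 in HS, and in LW pigs 6.75 to 8.76 in TN and 7.25 to 8.98 in HS. The climates overlapped throughout. The log2 fold change was 0.03 ± 0.20 (adjusted p = 0.924, limma) with a 95% interval of -0.38 to 0.44. The second probe, A_72_P441444, gave 0.09 ± 0.08 (adjusted p = 0.381, limma). Both signs turned to negative with the erythroid covariate (-0.23 and -0.0023), so no direction is given for IL1RN.

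IL1R1 encodes the signalling receptor of IL-1 and PYCARD the adaptor that joins NLRP3 to caspase-1. With values recomputed from the scanner files, the IL1R1 probe ranged from 4.63 to 5.18 and the PYCARD probe from 4.65 to 5.04. Both lay at the level of probes not well above background, so no comparison was made. The IL1R1 probe carries the accession of the human gene.

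NLRP3 encodes the sensor of the inflammasome. Its probe O572 had values of 7.17, 7.58, 7.26, 6.75 and 6.95 in CR TN pigs and of 7.01 to 7.44 (median 7.31) in CR HS pigs. Values of F1 pigs were 6.76 to 7.68 (median 7.30) in TN and 7.01 to 7.89 (median 7.12) in HS. In LW pigs it was 6.83 to 7.81 (median 7.12) in TN and 7.24 to 7.72 (median 7.59) in HS. The log2 fold change was 0.17 ± 0.10 (adjusted p = 0.169, limma), and 13 of 18 HS pigs lay above the TN mean of their breed. Within LW pigs the value was 0.36 ± 0.16, with adjusted p = 0.564 (limma). The probe A_72_P002976, listed under another name but with the same gene number, gave 0.14 ± 0.08 (adjusted p = 0.182, limma) and a correlation of 0.84 with O572.

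MYD88 encodes the adaptor shared by the IL-1, IL-18 and Toll-like receptors. Its 3 probes did not give the same result. With A_72_P245972, the CR TN pigs had 14.92, 14.93, 14.34, 14.74 and 14.61, and the CR HS pigs ranged from 13.52 to 15.08 with a median of 14.27. In F1 pigs the range was 14.54 to 15.47 (median 15.06) in TN and 13.76 to 14.35 (median 13.95) in HS. In LW pigs it was 14.10 to 15.18 (median 14.65) in TN and 13.92 to 14.48 (median 14.19) in HS. The F1 groups did not overlap, while those of CR and LW did. This probe fell by 0.66 ± 0.13 on the log2 scale (adjusted p = 0.00159, limma), and 15 of 18 HS pigs lay below the TN mean of their breed. The value was -0.52 (adjusted p = 0.0505, limma) with the erythroid covariate and -0.45 (adjusted p = 0.222, limma) without F1 pigs.

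The other 2 probes of MYD88 were higher in HS pigs on average. A_72_P088111 gave 0.24 ± 0.11 (adjusted p = 0.07, limma), with 15 of 18 HS pigs above the TN mean of their breed, and O4729 gave 0.24 ± 0.14 (adjusted p = 0.185, limma), with 13 of 18. A_72_P088111 passed the threshold when any 1 of 3 TN pigs was left out, with 0.29 without CR TN replicate 1, 0.28 without LW TN replicate 3 and 0.28 without F1 TN replicate 5. With the erythroid covariate A_72_P088111 gave 0.10 ± 0.11 (adjusted p = 0.584) and O4729 gave 0.05 ± 0.14 (adjusted p = 0.855, both limma), and without F1 pigs O4729 gave 0.11 ± 0.16. With O4729, the CR TN pigs had 9.37, 7.86, 8.30, 8.28 and 8.44, and the CR HS pigs ranged from 8.41 to 9.05 (median 8.81). The F1 pigs had 7.52 to 8.90 (median 8.25) in TN and 8.14 to 9.20 (median 8.70) in HS. In LW pigs it was 7.55 to 8.81 (median 8.34) in TN and 7.83 to 8.48 (median 8.38) in HS. HS and TN pigs overlapped in each breed with both of these probes.

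Across the 35 pigs, A_72_P088111 and O4729 followed each other closely (correlation 0.94, group means removed), whereas A_72_P245972 had correlations of 0.10 and 0.15 with them. The mean over the 3 probes gave -0.06 ± 0.10 (adjusted p = 0.652, limma). No direction is therefore given for MYD88 as a gene. No genome was used here, so whether A_72_P245972 measures MYD88 or another transcript was not tested, and its values are those of the probe. A_72_P245972 was designed on a cDNA clone, and a further probe on the same clone, which bears no gene name and is no member, gave -0.59 ± 0.12 (adjusted p = 0.00159, limma) and a correlation of 0.99 with it. The sequences are shown since the probes disagree. For A_72_P245972 the last 30 bases are given, with the hexamer AATAAA in capitals.
A_72_P245972: accctaggtttatAATAAAgagttctatac
A_72_P088111: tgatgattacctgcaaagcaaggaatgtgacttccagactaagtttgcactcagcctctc
AATAAA is the usual polyadenylation signal of mRNA. On the strand of the probe it stands in 10.3% of the 60305 probes, and in 4.32% on the opposite strand. Among the 16 member probes it is held by A_72_P245972, A_72_P165276 and A_72_P444799, which are also the 3 probes that passed the threshold for HS against TN. This overlap was noticed after the calls were known. Over all tested probes, 12.6% of the 4578 with AATAAA were lower in HS and 15.0% of the 34494 without it. The shares called higher were 23.8% and 19.6%.

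**Figure D4:**
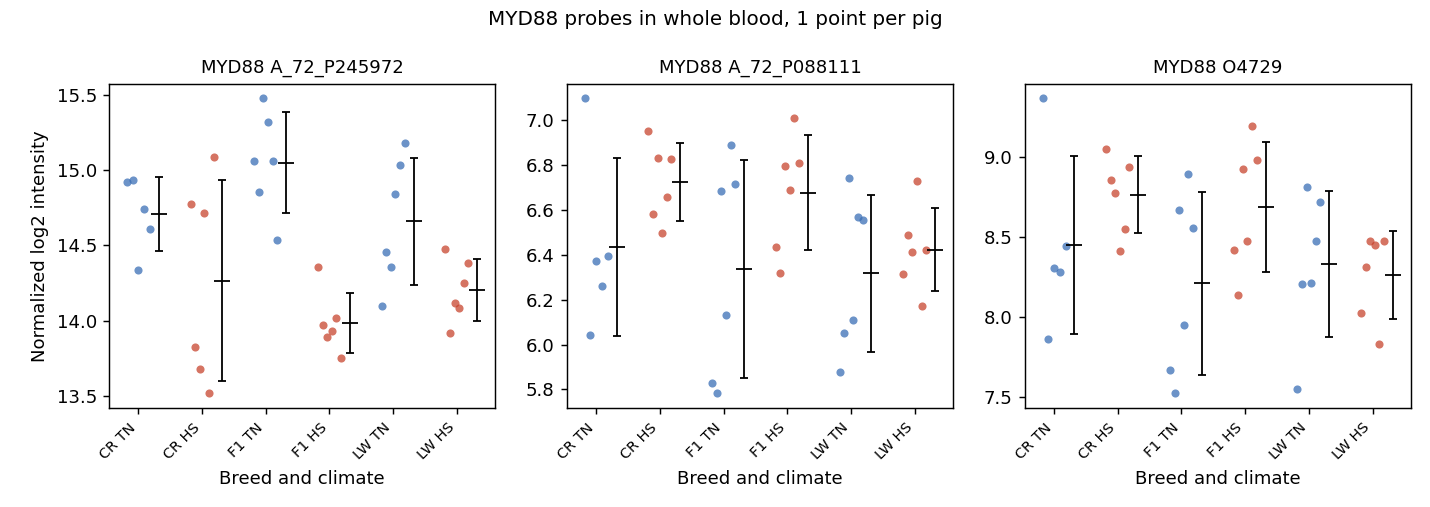
Normalized log2 intensity (y axis) of the 3 MYD88 probes in each pig by breed and climate (x axis), with mean and SD in black. In the left panel the F1 HS pigs (13.76 to 14.35) lie below all F1 TN pigs (14.54 to 15.47), while in the middle and right panels the climates overlap.

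Within F1 pigs, 2 of the 14 probes were called, both lower in HS, against 38.7% of all probes and 17.9% lower. MYD88 A_72_P245972 fell by 1.06 ± 0.21 (adjusted p = 0.000531, limma) and IL1A A_72_P165276 fell by 0.35 ± 0.09 (adjusted p = 0.00331, limma). These were also the 2 probes whose F1 groups did not overlap, which held for 11.7% of all probes. In CR pigs 0 of 14 and in LW pigs 0 of 14 probes had groups without overlap, against 0.461% and 0.781% of all probes. In F1 pigs, A_72_P165276 ranged from 5.67 to 6.02 in TN and from 5.32 to 5.58 in HS. With the erythroid covariate 1 of the 2 calls was left, while the calls over all probes went from 15108 to 1867.

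Within CR and within LW pigs, 0 of the 14 probes passed in limma, as did 0% of all probes. At an unadjusted p below 0.05 there were 0 probes in CR pigs (3466 of all probes) and 3 in LW pigs (3404 of all probes). The 3 were IL1A A_72_P444799 (-0.33 ± 0.12), NLRP3 O572 (0.36 ± 0.16) and MYD88 A_72_P245972 (-0.45 ± 0.21). In CR pigs the last of these gave -0.44 ± 0.23 (adjusted p = 0.557, limma), so its sign was negative in all 3 breeds. The effect of HS differed between breeds for 0 of 14 probes in limma, with 1 at an unadjusted p below 0.05, and for 0% of all probes (5807 unadjusted). That probe was IL1A A_72_P165276 (adjusted p = 0.319, limma), whose effect was -0.06 ± 0.09 in CR and -0.06 ± 0.09 in LW pigs.

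Breed was the second factor. Between CR and LW pigs 0 of 14 probes passed in limma (1.08% of all probes), and the 3 probes at an unadjusted p below 0.05 were those of IL18. Between F1 and CR pigs (0.184% of all probes) and between F1 and LW pigs (0.0256%) the count was again 0, with 0 at an unadjusted p below 0.05. Apart from IL18, the differences between CR and LW pigs ranged from -0.15 for NLRP3 to 0.32 for MYD88 O4729.

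Downstream and neighbouring genes of the pathway were taken from a list of 40 genes, of which 21 had a probe and 17 could be tested, each by its brightest probe. In HS pigs 6 rose and 2 fell, and 9 did not pass, against 20.1% higher and 14.7% lower over all probes. Of all 34 probes of these genes, 8 were called higher and 2 lower. The dimmer probes of IRAK2 (0.17, adjusted p = 0.056) and MAP3K7 (0.13, adjusted p = 0.102) did not pass in limma. TAB3 did not pass by its brightest probe, while its other probe did (0.21, adjusted p = 0.0139, limma). In limma, 0 of the 17 passed without F1 pigs (7 at an unadjusted p below 0.05) and 0 with the erythroid covariate (6 unadjusted). Over all probes, 0 were called without F1 pigs (6845 unadjusted) and 454 with the erythroid covariate (9291 unadjusted). The median log2 fold change of the 17 genes was 0.14, against 0.06 over all probes. TRAF6, the ubiquitin ligase that MYD88 signalling reaches through the IRAK kinases, rose by 0.35 ± 0.11 (adjusted p = 0.0194, limma). TAB1, a partner of the kinase MAP3K7, rose by 0.27 ± 0.09 (adjusted p = 0.0169, limma). P2RX7, the ATP-gated channel that can trigger NLRP3, rose by 0.27 ± 0.08 (adjusted p = 0.0106, limma). NLRP1, another inflammasome sensor, rose by 0.25 ± 0.10 (adjusted p = 0.0494, limma), and IRAK2 by 0.20 ± 0.07 (adjusted p = 0.0306, limma).

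Of the genes that fell, TOLLIP, an inhibitor of IL-1 and Toll-like receptor signalling, fell by 0.51 ± 0.13 (adjusted p = 0.0041, limma). IRAK1, a kinase recruited by MYD88, fell by 0.44 ± 0.13 (adjusted p = 0.00781, limma). Within F1 pigs, TOLLIP fell by 1.01 ± 0.20 and IRAK1 by 0.83 ± 0.20, and TAB1 rose by 0.48 ± 0.14 (adjusted p = 0.00039, 0.00217 and 0.0104, limma). These were 3 of the 17 genes, against 38.7% of all probes called in F1 pigs. Within CR and LW pigs 0 of the 17 genes passed in limma, as did 0% of all probes. There, TOLLIP had -0.22 and -0.26, IRAK1 -0.44 and -0.07, and TAB1 0.24 and 0.09. The effect of HS differed between breeds for 0 of the 17 genes and 0% of all probes. For TOLLIP, IRAK1 and TAB1 the adjusted p was 0.278, 0.311 and 0.494 (limma). CASP1, which cuts the precursors of IL-1β and IL-18, had a log2 fold change of 0.24 ± 0.11 (adjusted p = 0.0849, limma), and GSDMD, the pore protein through which IL-1β leaves the cell, had -0.04 ± 0.05 (adjusted p = 0.535, limma). The signal of GSDMD was low, with group means from 5.21 in LW TN to 5.35 in F1 TN, so its value says little about a change.

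Members were also compared with each other across pigs, after removal of the group means. The brighter probes of IL1B (A_72_P441479) and IL1RN (A_72_P776040) had Pearson r = 0.54 and Spearman rho = 0.48 over 35 pigs (permutation p = 0.00217 and 0.00911, adjusted 0.00326 and 0.021 over 3 pairs). Without the 2 pigs farthest from the median of IL1B, r was 0.43. The other IL1RN probe, A_72_P441444, had r of 0.15 with A_72_P441479 and 0.25 with O8281, while O8281 had 0.62 with A_72_P776040. IL18 A_72_P652365 and IL1B A_72_P441479 had r = 0.57 and rho = 0.44 (permutation p = 0.0014 and 0.014, adjusted 0.00326 and 0.021), and r = 0.45 without the 2 farthest pigs. With IL1B O8281 the 3 IL18 probes had r of 0.20 to 0.25, so both relations depended on the probe. The signal of O8281 was low, and the part of this in its values of r was not tested. IL1B A_72_P441479 and NLRP3 had r = 0.18 and rho = 0.18 (permutation p = 0.312 and 0.327). With slide also removed, the 3 values of r were 0.52, 0.51 and 0.19. Pigs share slides and a mixture of cells, so these are relations of whole samples.

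**Figure D5:**
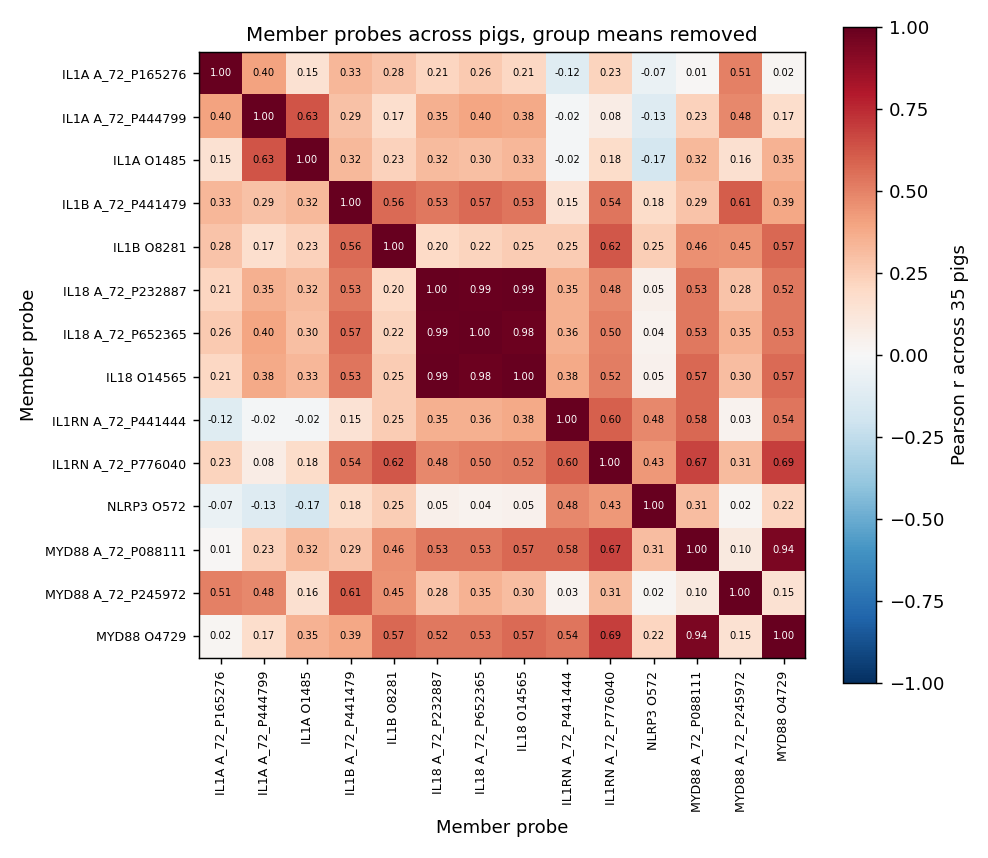
Pearson correlation (colour and printed value) between the 14 probes over 35 pigs after removal of the 6 group means, with gene and probe on both axes. The 3 IL18 probes form a block at 0.98 to 0.99, and MYD88 A_72_P245972 stands apart from the other MYD88 probes (0.10 and 0.15).

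The lists of cell type markers moved with some members. The mean of 7 monocyte genes had a correlation of 0.72 with IL1B A_72_P441479 across the 35 pigs, group means removed, against -0.15 for the mean of 9 neutrophil genes. With IL1B O8281, the dim probe, the monocyte value was 0.34. The probes with a gene name most like IL1B were those of IFNGR1 (0.77), a chain of the interferon gamma receptor, and CD14 (0.76 and 0.75), the monocyte receptor for lipopolysaccharide. For IL18 A_72_P652365 the correlation was 0.39 with the monocyte mean, -0.65 with the neutrophil mean and -0.55 with the erythroid mean. The probes most like IL18 were those of TLR4 (0.83), the Toll-like receptor for lipopolysaccharide, PGK1 (0.80), an enzyme of glycolysis, and NUMB (0.80), a regulator of Notch. IL1RN A_72_P776040 had a correlation of 0.70 with the mean of 2 platelet genes, and A_72_P441444 had 0.24. In HS pigs 3 of 7 monocyte genes were higher (CSF1R, FCN1 and VCAN, median of the 7 genes 0.24), beside 20.1% of all probes, while CD14, CD68 and LYZ had values of -0.10, -0.10 and -0.14 that did not pass. Of the T cell genes 2 of 6 and of the B cell genes 2 of 5 were higher, and 0 of 9 neutrophil genes passed in limma (median -0.39). The group means of the neutrophil list ranged from 10.87 to 11.48 and those of the monocyte list from 8.65 to 9.07. The part of these cell types in the results was not tested beyond the neutrophil covariate, with which the difference in IL18 between CR and LW pigs was 1.03 ± 0.29 (adjusted p = 0.0662, limma).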

How the data were processed

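Whole blood RNA of 35 pigs was hybridised to custom Agilent arrays, 1 colour and 1 array per pig, read with Feature Extraction 10.10.1.1 per the file headers. The authors deposited scanner files of raw median intensity, not normalized between arrays, and a table of log2 values made from it by quantile normalization and a filter on expressed probes (39072 probes). The rule of that filter is not given in the sources used here. The deposited log2 values were analysed. Values recomputed from the intensity had r = 0.99997 with them. Each probe was fitted in R 4.3.3 with limma 3.58.1 over the 35 arrays, with breed and climate additive or with 1 mean for each of the 6 groups. Tests were two-sided, with Benjamini-Hochberg over 39072 probes. The random effects of pen, day, father and mother in the study's model have no labels here and were left out. A gene was represented by its brightest probe, and every member probe was reported. The pathway genes with the largest changes past the threshold were named, up to 5 in each direction, with CASP1 and GSDMD added after their values were seen. Permutation tests shuffled pigs within groups, 100000 times. Members, lists and tests were chosen with earlier results of these data known. For arrays no counting depth exists, and their number limits the precision. The fit was tested on simulated data.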

Additional observations from a re-analysis of the deposited data

Results flagged for a closer look

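Among the 84 combinations of member probe and group, 4 held a pig far from the others of its group by Dixon's criterion, which chance alone meets in about 1 of 20 groups. IL18 A_72_P652365 was 12.15 in CR TN replicate 1, against 8.97 to 9.75 in the other 4 pigs, and IL18 O14565 was 11.89 in the same pig, against 9.09 to 9.76. The neutrophil mean of this pig was 9.33, the lowest of its group, and its 75th percentile of intensity was 329, the highest of the 35 arrays. IL18 A_72_P652365 was 7.24 in LW TN replicate 1, while the other pigs of that group had 8.92 to 9.90. The neutrophil mean of that pig was 12.33, the highest of its group. NLRP3 O572 was 7.81 in LW TN replicate 6, against 6.83 to 7.17 in the others. Without this pig the log2 fold change of NLRP3 between HS and TN was 0.20 (adjusted p = 0.0896, limma).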

How the results depend on the processing

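The count of member probes called between HS and TN (3) was 0 with the erythroid mean as a covariate (454 of all probes called) and 0 without F1 pigs (0 called). It was 0 in the additive fit to the 6 group means (0 called), which has little power with 6 values per probe. It was also 0 without the F1 TN arrays (1 called), a setting chosen after seeing the data. The log2 fold changes of that setting equal those without F1 pigs, since F1 HS pigs then carry no information on climate. In F1 pigs the count (2, with 15108 of all probes called) became 1 with the erythroid covariate (1867 called). Leaving out each pig in turn gave 3 to 4 probes for HS minus TN and 2 to 3 within F1 pigs. The 3 called probes kept their negative sign under these settings. The cause of the lost calls was not tested. IL1B O8281 (-0.01) turned to 0.0016 with the erythroid covariate and to 0.0202 without F1 pigs and without the F1 TN arrays, with -0.0416 to 0.037 when each pig was left out. IL1RN A_72_P776040 (0.03) turned to -0.0945 with array weights, -0.232 with the erythroid covariate, -0.0725 with the neutrophil covariate and -0.0786 without F1 pigs and without the F1 TN arrays, with -0.0525 to 0.0834 when each pig was left out. IL1RN A_72_P441444 (0.09) turned to -0.0023 with the erythroid covariate. Other settings, such as recomputed normalization, no filter, scaling on the 75th percentile, normexp correction and slide as a block, gave 3 calls for HS minus TN. No paired analysis was possible because the replicate numbers follow the order of the sample records and pair no animals. The number of arrays limits the precision, and the signal of IL1A lay close to background.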
